A study of Mus musculus with 2 samples.

Results

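The 8 genes described here encode the opioid peptide precursors (Penk, Pdyn, Pnoc and Pomc) and the opioid receptors (Oprd1, Oprk1, Oprm1 and Oprl1). They were taken by symbol from a count table of 32531 genes, and all 8 symbols were present. The RNA came from the ventral striatum of adult, untreated Stard5-EGFP/Rpl10a mice of the single line JX5852, in which cells that use Stard5 regulatory sequence carry EGFP on the ribosomal protein L10a. Tagged polysomes were pulled down with antibodies against EGFP (translating ribosome affinity purification, TRAP) and the bound RNA was sequenced. The 2 libraries, replicates 1 and 2, form the only group, and the labels leave unsaid whether each was drawn from its own animal or pool. Tests and SDs below therefore measure only how these libraries differ, which may be technical. The transgene is a single line, and which striatal cells it tags is known here only from the RNA recovered. No input RNA, other mouse line or other region was analysed here, so the levels below are not enrichments over the tissue.

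Opioid peptides are cut out of larger precursors at pairs of basic residues. Proenkephalin (Penk) gives enkephalins, prodynorphin (Pdyn) gives dynorphins, proopiomelanocortin (Pomc) gives beta-endorphin, and pronociceptin (Pnoc) gives nociceptin. The receptors couple to inhibitory G proteins: delta (Oprd1) and mu (Oprm1) are the main receptors of enkephalins and endorphin, kappa (Oprk1) of dynorphins, and Oprl1 of nociceptin. In the striatum, enkephalin is the classical peptide of spiny neurons of the indirect pathway, where Drd2 is the main dopamine receptor, and dynorphin that of the direct pathway, where Drd1 is.

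The coding sequence of Penk holds 7 copies of the opioid core, against 3 in Pdyn and 1 each in Pnoc and Pomc. These stretches are shown because they hold the core codons of each precursor gene, not the full coding stretch of every active peptide. Each line gives the core codons in capitals with the 6 bases on either side in lower case, read 5′ to 3′ in the GENCODE M21 transcript with the longest coding sequence.
Penk unit 1: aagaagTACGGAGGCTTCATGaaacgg
Penk unit 2: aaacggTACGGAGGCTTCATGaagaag
Penk unit 3: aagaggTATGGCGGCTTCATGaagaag
Penk unit 4: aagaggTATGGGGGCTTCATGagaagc
Penk unit 5: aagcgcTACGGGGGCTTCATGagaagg
Penk unit 6: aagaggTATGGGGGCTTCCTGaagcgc
Penk unit 7: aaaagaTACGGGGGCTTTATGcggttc
Pdyn unit 1: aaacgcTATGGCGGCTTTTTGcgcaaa
Pdyn unit 2: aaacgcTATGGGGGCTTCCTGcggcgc
Pdyn unit 3: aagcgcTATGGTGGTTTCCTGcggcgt
Pnoc unit 1: aaaaggTTTGGGGGCTTCaccggg
Pomc unit 1: aagcgtTACGGTGGCTTCATGacctcc
Of the 7 Penk cores, 6 end in a methionine codon and 1 in a leucine codon, while all 3 Pdyn cores end in leucine. A pair of basic codons stands before each of the 12 cores, and on both sides of 5 in Penk and of all 3 in Pdyn. The Penk units lie in exon 2 of 2, within chr4:4133842-4134354 (GRCm38, minus strand), and the Pdyn units in exon 4 of 4, within chr2:129688067-129688258 (minus strand). The Pnoc unit is at chr14:65404875-65404898 (minus strand, exon 3 of 4) and the Pomc unit at chr12:3960367-3960393 (plus strand, exon 4 of 4). In full, Penk (ENSMUSG00000045573.9) spans chr4:4133531-4138819, Pdyn (ENSMUSG00000027400.11) chr2:129686565-129699844, Pnoc (ENSMUSG00000045731.6) chr14:65400673-65425472 and Pomc (ENSMUSG00000020660.6) chr12:3954951-3960642.

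The libraries held 25830282 and 29574781 reads in genes, and 12374 genes (38.0%) reached 1 CPM (count per 1000000 gene reads) in both, which is the detection threshold used below. Stard5 itself had 166 CPM in the first library and 54.9 CPM in the second. Spiny neuron markers other than Penk and Pdyn were all detected, with sums of 540 and 381 CPM for 6 indirect pathway genes and 783 and 505 CPM for 6 direct pathway genes in replicates 1 and 2. Isl1 stands in both the direct pathway list and that of cholinergic interneurons; without it the direct pathway genes summed to 743 and 491 CPM. The other 4 cholinergic genes were all detected, each with more CPM in replicate 2, and summed to 88.8 and 119 CPM. GABA interneuron genes (5 of 7, Vip at 0 reads) summed to 111 and 169 CPM. Glial RNA was present too: all 6 astrocyte markers were detected, with sums of 882 and 2972 CPM, as were all 6 oligodendrocyte markers, with sums of 837 and 1290 CPM. All 5 microglia markers were detected as well, with sums of 155 and 116 CPM in replicates 1 and 2. In such RNA, fewer cells of a type and less RNA per cell cannot be told apart.

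Penk was by far the most abundant opioid gene, Pdyn came next, Pnoc sat at the detection threshold and Pomc had no reads. Penk had 49188 reads in replicate 1 and 30500 in replicate 2, or 1904 CPM (exact Poisson 95% interval 1887 to 1921) and 1031 CPM (1020 to 1043). Its mean of 1468 ± 617 CPM (SD, n = 2) was rank 40 of all 32531 genes. Both libraries were high, but their intervals did not overlap and replicate 1 held the larger share.

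Pdyn had 4335 reads in replicate 1 and 4233 in replicate 2, which is 168 CPM (163 to 173) and 143 CPM (139 to 148). Its mean was 155 ± 17.5 CPM (SD, n = 2), rank 1383. The libraries were close, although their counting intervals did not overlap.

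Pnoc had 32 reads in replicate 1 and 26 in replicate 2, which is 1.24 CPM (0.847 to 1.75) and 0.879 CPM (0.574 to 1.29). It lay just inside the threshold in replicate 1 and just outside it in replicate 2, so it did not count as detected, and the intervals overlapped. No library held a Pomc read (0 and 0). A floor of 3 reads is 0.116 CPM for replicate 1 and 0.101 CPM for replicate 2. The exact Poisson 95% interval of a count of 0 reaches 0.143 CPM in replicate 1 and 0.125 CPM in replicate 2. None of the 50-base stretches of annotated Pomc transcripts occurs in a transcript of another gene.

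Defining genes of tissues rich in Pomc were also low. Of 6 pituitary markers 0 were detected and 5 (Gh, Prl, Cga, Pou1f1 and Tbx19) had 0 reads. Of 5 genes listed for the hypothalamic region of Pomc neurons, only Nkx2-1, which striatal interneurons also use, was detected (3.91 and 8.08 CPM in replicates 1 and 2). Agrp (1.78 and 0.101 CPM) and Tbx3 (0.852 and 1.79 CPM) each passed 1 CPM in a single library. Prdm12 had 0 and 0.913 CPM, and Nr5a2 had 0 reads.

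**Figure D1:**
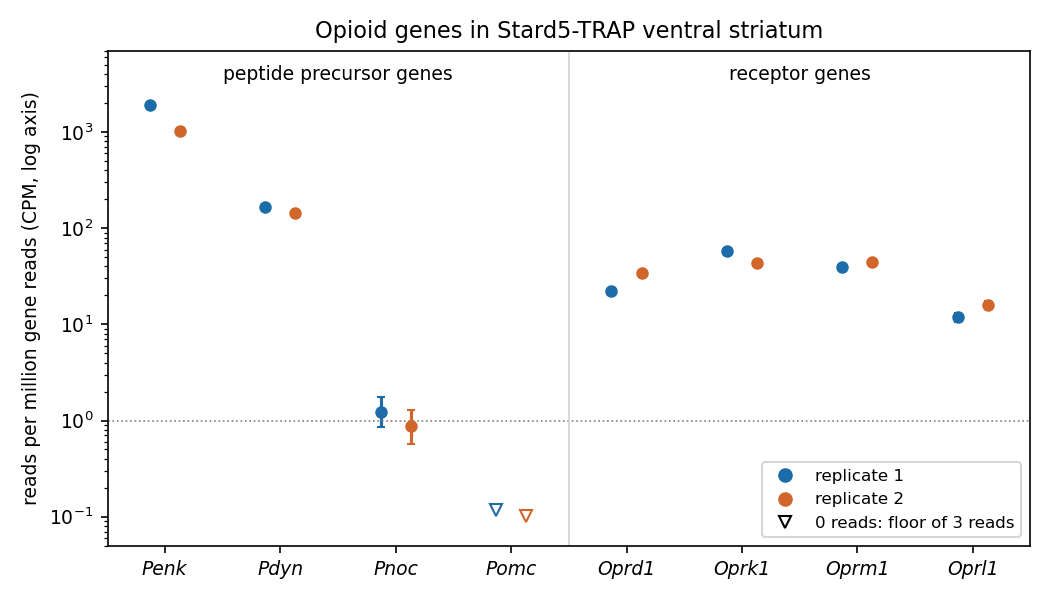
Level of each opioid gene in CPM on a log axis, with 1 point per library and exact Poisson 95% intervals, which are smaller than most points; open triangles mark the floor of 3 reads where a library had 0 reads, and the dotted line marks 1 CPM. Penk lies at 1904 and 1031 CPM, the receptor genes lie between 11.8 and 57.6 CPM, and Pnoc straddles the dotted line.

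Levels of different genes were compared per kilobase of annotated exon (reads per kilobase per 1000000 gene reads, RPKM). On that scale Penk stood at 1165 RPKM in replicate 1 and 631 RPKM in replicate 2, with a mean of 898 ± 378 (SD, n = 2), rank 6 of 23113 symbols with a length. Pdyn stood at 58.1 and 49.6 RPKM. Penk lay 4.33 log2 units above Pdyn in replicate 1 and 3.67 in replicate 2, which is 20.0-fold and 12.7-fold. The SD of that difference was 0.46 (n = 2). Penk made up 93.9% ± 1.80 (SD, n = 2) of the RPKM of the 4 peptide genes and Pdyn 6.01% ± 1.79.

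Pnoc stood at 0.574 and 0.408 RPKM in replicates 1 and 2. Pdyn lay 6.79 ± 0.19 log2 units above it (SD, n = 2). Against a Pomc floor of 3 reads per library, the RPKM of Pnoc was 6.52-fold higher in replicate 1 and 5.30-fold higher in replicate 2. These folds leave out the counting error of Pnoc and are not lower limits. The order Penk, Pdyn, Pnoc, Pomc was the same in both libraries, and the values of neighbours in that order did not overlap.

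The ratio of each abundant peptide gene to the dopamine receptor gene of its pathway was close between the libraries, while the ratio of the dopamine receptor genes to each other was not. These ratios were picked after their genes' values had been seen and are given as a description. Penk was 12.1-fold above Drd2 in RPKM in replicate 1 and 11.7-fold above it in replicate 2, a log2 difference of 3.57 ± 0.04 (SD, n = 2). Pdyn stood at 0.736 of the RPKM of Drd1 in replicate 1 and 0.719 in replicate 2, a log2 difference of -0.46 ± 0.02. Over the same libraries the ratio of Drd1 to Drd2 in RPKM was 0.819 in replicate 1 and 1.27 in replicate 2.

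Ratios to other genes of the same neurons differed more. Penk was 29.6-fold and 21.1-fold above the adenosine receptor gene Adora2a, an indirect pathway marker, in RPKM in replicates 1 and 2. Pdyn was 0.551-fold and 1.16-fold the RPKM of Tac1, the tachykinin gene of direct pathway neurons, so their order differed between the libraries.

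All 4 receptor genes were detected, at levels below Penk and Pdyn and above Pnoc and Pomc in both libraries. Oprk1, the kappa receptor, had 1489 reads in replicate 1 and 1288 in replicate 2, or 57.6 CPM (54.8 to 60.6) and 43.6 CPM (41.2 to 46.0). Oprm1, the mu receptor and main target of morphine, had 1015 and 1301 reads, or 39.3 CPM (36.9 to 41.8) and 44.0 CPM (41.6 to 46.4). Its intervals overlapped between the libraries, unlike those of Oprk1.

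Oprd1, the delta receptor, had 568 reads in replicate 1 and 1016 in replicate 2, or 21.99 CPM (20.2 to 23.9) and 34.4 CPM (32.3 to 36.5). Oprl1, the nociceptin receptor, had 305 and 475 reads, or 11.8 CPM (10.5 to 13.2) and 16.1 CPM (14.6 to 17.6). Both were higher in replicate 2, with intervals that did not overlap. Oprl1 was detected at 13.9 ± 3.01 CPM (SD, n = 2) while the gene of its peptide, Pnoc, was at 1.06 ± 0.254 CPM.

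A coding stretch around the conserved aspartate, arginine and tyrosine codons of the receptors is shown as an example of how far these related genes share bases. Capitals mark the bases that are identical in all 4 genes.
Oprd1: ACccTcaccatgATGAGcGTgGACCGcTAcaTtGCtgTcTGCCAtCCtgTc
Oprk1: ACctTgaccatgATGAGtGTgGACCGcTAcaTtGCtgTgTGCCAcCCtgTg
Oprm1: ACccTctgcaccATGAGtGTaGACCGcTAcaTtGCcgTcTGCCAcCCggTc
Oprl1: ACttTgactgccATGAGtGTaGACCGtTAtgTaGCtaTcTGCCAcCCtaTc
Of these 51 bases, 29 were identical in all 4 genes. The stretches lie at chr4:132117234-132117284 (minus strand), chr1:5598774-5598824, chr10:6829069-6829119 and chr2:181718561-181718611 (plus strand) of GRCm38, in the order shown. The longest exact stretch shared by the transcripts of any pair of receptor genes was 25 bases, between Oprk1 and Oprl1, and the longest between peptide genes was 15 bases, between Penk and Pdyn. Of the 50-base stretches of each receptor's transcripts, at most 0.583% (Oprm1, shared with Ipcef1) occur in transcripts of another gene.

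The order of the receptor genes per kilobase was not settled by these data. With all annotated exons counted, Oprd1 stood at 5.47 RPKM in replicate 1 and 8.54 RPKM in replicate 2, Oprk1 at 6.30 and 4.76, Oprm1 at 4.89 and 5.47, and Oprl1 at 3.15 and 4.28. Oprl1 was lowest in both libraries. The other receptor genes exchanged places: Oprk1 led in replicate 1 and Oprd1 in replicate 2. The log2 difference of Oprd1 and Oprk1 was 0.32 ± 0.74 (SD, n = 2), that of Oprk1 and Oprm1 0.08 ± 0.40 and that of Oprd1 and Oprm1 0.40 ± 0.34, so the first and second were smaller than their spread. The difference of Oprm1 and Oprl1 was 0.50 ± 0.20.

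The order also differed with the exon length assigned to each gene. Oprm1 has 31 annotated transcripts that together span 8037 exon bases, while its longest single transcript has 2420. Oprk1 has 5 transcripts over 9151 exon bases, of which 4769 belong to protein-coding transcripts, and Oprd1 has 1 transcript of 4021 bases. With the longest transcript as the length, Oprm1 led at 17.2 ± 1.37 RPKM, before Oprk1 at 10.8 ± 2.13, Oprd1 at 7.01 ± 2.17 and Oprl1 at 4.49 ± 0.97 (SD, n = 2). With exons of protein-coding transcripts only, a length chosen after the data had been seen, Oprk1 led at 10.6 ± 2.09 RPKM. Oprl1 had the lowest mean under all 4 lengths tried, and Oprd1 lay 0.19 to 0.90 log2 units above it.

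**Figure D2:**
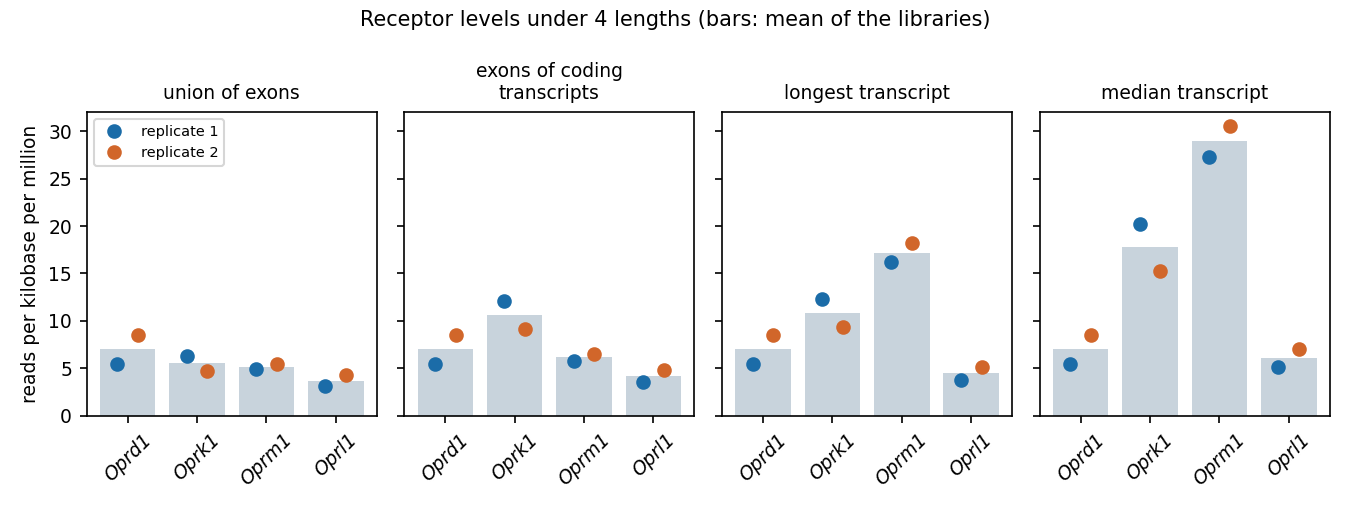
RPKM of the receptor genes under 4 choices of exon length, with bars for the mean of the 2 libraries and points for each library. The leading gene is Oprd1 with the union of exons, Oprk1 with exons of coding transcripts and Oprm1 with the longest or the median transcript, while Oprl1 is lowest in each panel.

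Summed over the genes, peptides exceeded receptors by 5.42 ± 0.75 log2 units of RPKM (SD, n = 2), which is 61.8-fold in replicate 1 and 29.5-fold in replicate 2. Within ligand and receptor pairs, with all annotated exons counted, Oprk1 stood at 0.108 of the RPKM of Pdyn in replicate 1 and 0.0960 in replicate 2. Oprd1 stood at 0.00469 and 0.0135 of the RPKM of Penk. The first ratio was close between the libraries and the second was not. Both depend on the exon length used, and Oprm1, the other main receptor of enkephalins, was not set against Penk.

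Of the opioid genes, 0 of the 6 detected were called different between the libraries, against 17.3% of the 12374 genes tested. A call needed an adjusted p below 0.05 (exact binomial test on reads with TMM scaling, Benjamini-Hochberg over all genes tested) and at least a 2-fold ratio. The test compares 2 libraries of 1 group and takes in counting error only. By the p-value alone, without the fold, 6 of 6 opioid genes passed, against 78.9% of all genes tested. Of these, Penk, Pdyn and Oprk1 were higher in replicate 1 (39.8% of all genes tested) and Oprd1, Oprm1 and Oprl1 higher in replicate 2 (39.1%).

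Penk had the largest ratio of the 6, at 0.86 on the log2 scale (replicate 1 over replicate 2), and 77.0% of all tested genes had a smaller one in either direction. Few genes of its abundance lay higher: of 92 genes at a mean of 1000 CPM or more, 3 had a ratio above that of Penk. Oprd1 followed at -0.67, Oprl1 at -0.47, Oprk1 at 0.38, Pdyn at 0.20 and Oprm1 at -0.19. The median of the 6 was 0.01, and that of all genes tested was 0.00. At a 1.5-fold threshold, 2 of the 6 were called, Penk and Oprd1, against 38.2% of all genes tested. Of the astrocyte markers 5 of 6, and of the oligodendrocyte markers 2 of 6, were called higher in replicate 2, against 9.52% of all genes tested. Microglia markers leaned the other way, with a median log2 ratio of 0.46. Of these 5, 0 were called, against 17.3% of all genes tested in either direction. Neuron lists also held calls higher in replicate 2, among them 1 of 5 cholinergic markers, with 1 called higher in replicate 1, and 1 of 3 detected glutamatergic markers. The counts of Oprd1, Oprm1 and Oprl1 were also higher in replicate 2, and the part of any of these cell types in their ratios was not tested.

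**Figure D3:**
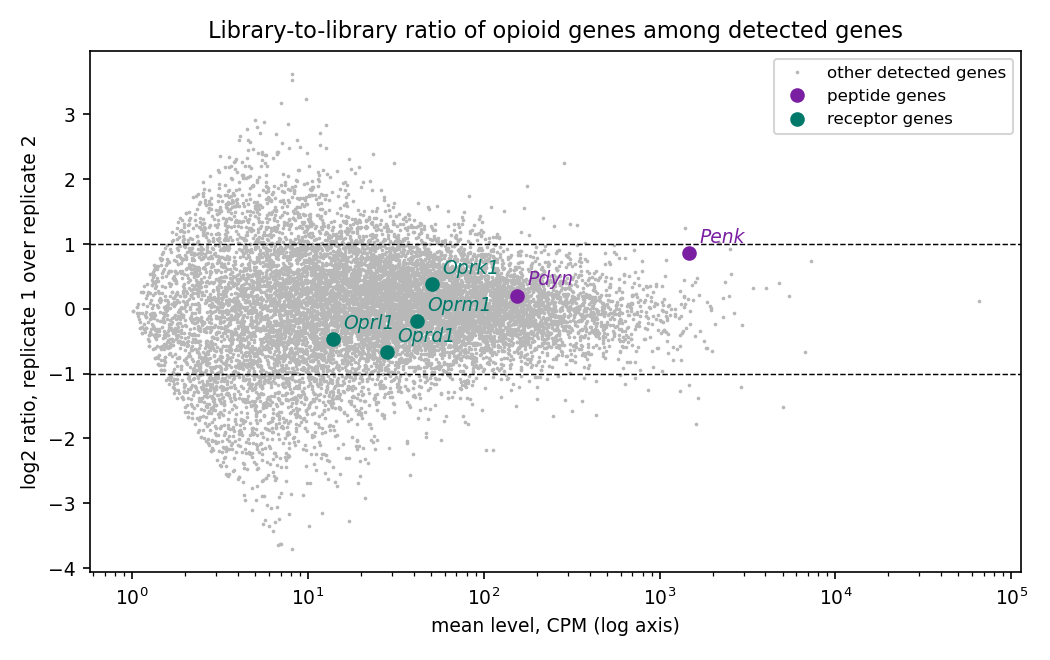
Log2 ratio of replicate 1 over replicate 2 (TMM scaled) against mean CPM on a log axis for all 12374 detected genes, with opioid peptide genes in purple and receptor genes in green; dashed lines mark a 2-fold ratio. All 6 detected opioid genes lie between the dashed lines, and Penk, at 0.86, is near the upper edge of the genes of its abundance.

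Over the 2 libraries, the genes with levels most like Penk were Gas7, Hpca and Atp1b1, at distances of 0.306, 0.345 and 0.390 in log2(CPM + 1). Those most like Oprk1 were Os9, Bace1 and Trpc1, at distances of 0.0388, 0.0416 and 0.0422. No gene lay as near to Penk as 3 genes lay to Oprk1, but few genes lie at the level of Penk. Only 92 had a mean of 1000 CPM or more, and Penk was rank 40 by mean CPM against 3846 for Oprk1.

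Most of the genes listed for making, cutting and sensing opioid peptides were detected in this RNA, and which cells they came from was not tested. Of 52 further genes of the pathway in 7 lists, 51 were detected, with a median of 33.2 CPM against 23.1 CPM for all detected genes. Between the libraries, 4 were called higher in replicate 1 and 3 higher in replicate 2, and 7.76% and 9.52% of all genes tested were. The median log2 ratio of the lists together was -0.01.

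All 8 genes for processing precursors were detected. They were led by carboxypeptidase E, Cpe, which trims basic residues, at 274 ± 83.2 CPM and by the prohormone convertase gene Pcsk2 at 235 ± 4.21 CPM (SD, n = 2), followed by carboxypeptidase D, Cpd, at 107 ± 14.6 CPM. The other prohormone convertase of the pathway, Pcsk1, was at 4.62 ± 1.18 CPM. Furin, a convertase of the Golgi, was the only 1 of the 8 called, against 17.3% of all genes tested. It had 4.53 CPM (replicate 1) and 2.13 CPM (replicate 2). Per kilobase, Pcsk2 stood at 30.1 and 29.4 RPKM in replicates 1 and 2, and Pcsk1 at 0.974 and 0.676.

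All 8 peptidases that can break down opioid peptides were detected. The puromycin-sensitive aminopeptidase gene Npepps stood at 190 ± 15.1 CPM, neprilysin, Mme, which cuts enkephalins, at 122 ± 28.4 CPM and Lnpep at 112 ± 8.01 CPM (SD, n = 2). Ece2, a metalloprotease, was called, with 5.42 CPM (replicate 1) and 14.9 CPM (replicate 2). The median log2 ratio of the list was -0.22.

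The inhibitory G protein alpha subunits, through which all opioid receptors signal, were all detected. Of these 5, 0 were called, against 17.3% of all genes tested, too few genes to set apart from that share. Gnao1 stood at 1551 ± 124 CPM, Gnai1 at 548 ± 13.9 CPM and Gnai2 at 69.5 ± 8.33 CPM (SD, n = 2). Of 9 effectors, 8 were detected and 0 called, again against 17.3% of all genes tested. They were led by the striatal adenylyl cyclase gene Adcy5 at 316 ± 2.75 CPM, the N-type calcium channel gene Cacna1b at 122 ± 24.1 CPM and Adcy1 at 84.2 ± 29.8 CPM. The inward rectifier potassium channel genes were low: Kcnj3 stood at 15.6 ± 5.69 CPM, and Kcnj5 was not detected, with 0.774 CPM (replicate 1) and 1.83 CPM (replicate 2).

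All 10 genes that dampen receptor signalling were detected. Rgs9, a striatal accelerator of G protein shutdown, stood at 289 ± 36.5 CPM, Rgs4 at 273 ± 16.6 CPM and the arrestin gene Arrb1 at 232 ± 28.5 CPM (SD, n = 2). The receptor kinase genes Grk5, with 10.3 CPM (replicate 1) and 25.7 CPM (replicate 2), and Adrbk2, at 9.41 and 19.8 CPM, were called as higher in replicate 2. Of the 6 astrocyte markers, 5 were called in the same direction, against 9.52% of all genes tested, and their part was not tested.

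Of 4 other genes, listed as opioid peptide binders or genes related to them, Ogfrl1 led at 215 ± 31.6 CPM (SD, n = 2). It is a relative of the opioid growth factor receptor gene Ogfr, and binding was not tested. Ogfr was called, with 9.02 CPM (replicate 1) and 3.82 CPM (replicate 2).

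All 8 transcription factors linked to opioid peptide genes were detected. Kcnip3, which encodes the Pdyn repressor DREAM, led at 147 ± 38.5 CPM, before the cAMP response factor gene Creb1 at 108 ± 8.55 CPM and Fosb at 26.1 ± 2.88 CPM (SD, n = 2). Fos, an immediate early gene, was called, with 9.33 CPM (replicate 1) and 1.69 CPM (replicate 2), as was Atf1, at 31.7 and 14.6 CPM.

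**Figure D4:**
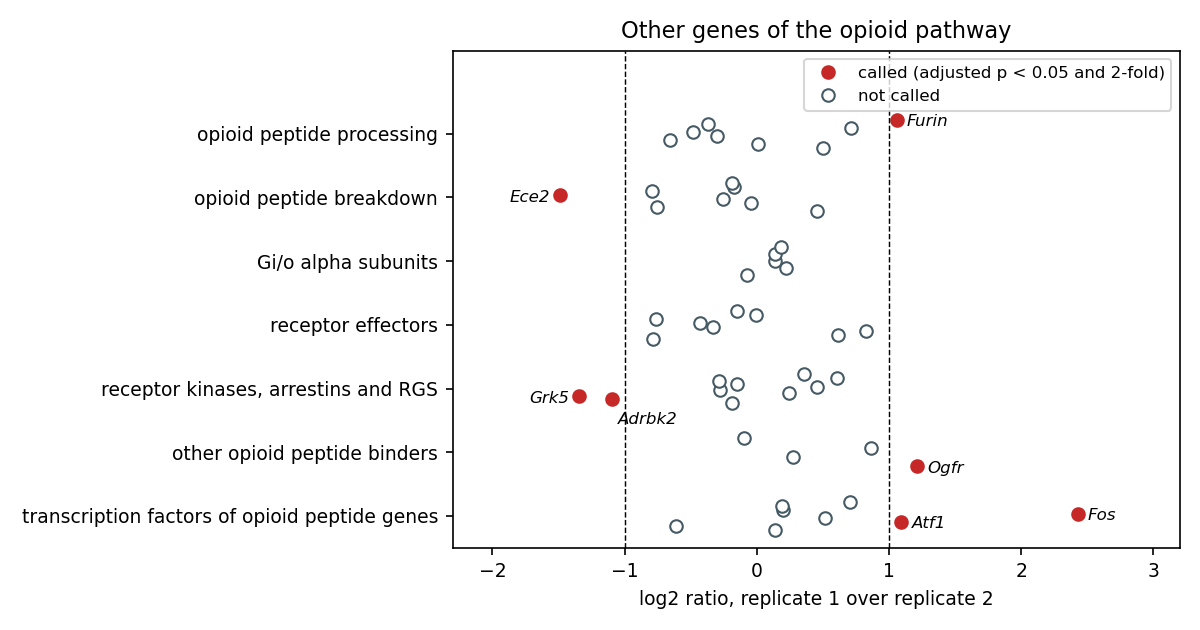
Log2 ratio of replicate 1 over replicate 2 for the 51 detected pathway genes, with 1 row per list; filled points were called (adjusted p below 0.05 and at least 2-fold) and dashed lines mark a 2-fold ratio. The 7 called genes are Furin, Ogfr, Atf1 and Fos on the right and Ece2, Grk5 and Adrbk2 on the left.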

How the data were processed

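The authors deposited raw read counts per gene symbol for each library, made with STAR 2.0.0e and HTSeq on mouse build mm10, per the submitters' processing notes. The sources used here do not give the gene annotation, strand setting or read filters, so reads of overlapping genes on opposite strands cannot be told apart. Of the exon bases of Penk, 14.3% overlap A830012C17Rik, and of those of Oprm1, 1.19% overlap Ipcef1 (32.6 ± 5.54 CPM, SD, n = 2). Of the 50-base stretches of annotated Penk transcripts, 8.60% also occur in transcripts of A830012C17Rik. Left out were 6 summary lines per library, of which the one for reads in no gene held 22.8% of the total in replicate 1 and 31.0% in replicate 2, and the one for reads without a unique alignment 27.9% and 13.6%.

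CPM were computed from the counts and, with exon lengths from GENCODE M21 (GRCm38), to RPKM. All levels are means ± SD over the 2 libraries, and intervals and floors cover counting error only. Reads of the libraries were compared by two-sided exact binomial tests (scipy 1.17.1) with TMM factors of edgeR 4.0.16; no groups exist for a model across replicates. Alternatives were DESeq2 1.42.0 size factors, plain totals, totals without Rn45s, other filters, lengths and fold thresholds. Rn45s, a ribosomal RNA precursor gene, held 68851 CPM in replicate 1 and 62106 CPM in replicate 2. With Rn45s left out of the total, the mean of Penk was 1572 CPM, against 1468 CPM as reported. Members and lists were chosen with earlier results of these data known. Genes named are all 8 members, the up to 3 highest and every called gene of each list, the 3 nearest in level to the leading peptide and receptor gene, and overlapping genes, apart from a list member that is not reported here; Pcsk1, Kcnj3, Kcnj5, the pathway markers set beside Penk and Pdyn, and the pituitary and hypothalamic markers were named after their values were seen.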

Additional observations from a re-analysis of the deposited data

How the results depend on the processing

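Differences of levels between genes depended on the exon length used, as the alternatives' own construction shows. On the log2 scale, Penk minus Pdyn became 2.43 with the median transcript length and 3.18 with no division by length. Pdyn minus Pnoc (6.79) became 7.04 with exons of coding transcripts, a choice made after the data had been seen, 7.07 with the longest transcript, 8.67 with the median transcript and 7.21 with no division. Oprd1 minus Oprk1 (0.32) turned to -0.62, -0.65, -1.36 and -0.87 under these settings, and was -0.20 and 0.84 with a single library. Oprd1 minus Oprm1 (0.40) turned to -1.33 with the longest transcript, -2.08 with the median transcript and -0.60 with no division. Oprk1 minus Oprm1 (0.08) was 0.77 with coding transcripts, -0.68 with the longest and -0.71 with the median transcript, and -0.20 and 0.37 with a single library. Oprm1 minus Oprl1 (0.50) was 1.95, 2.27 and 1.59 with the longest transcript, the median transcript and no division. With no division, summed peptides minus receptors was 3.54 and the Penk share 89.8%. The largest receptor share, 32.3% for Oprd1, was 43.5% for Oprm1 with the longest transcript, 38.2% for Oprk1 with coding transcripts and 37.8% for Oprk1 with no division, so the leading gene changed under each. At 1.5-fold, 2 opioid genes and 4732 of all genes were called, and with no filter 5781 of all genes, against 2138 as reported. The other 75 of 102 comparisons with an alternative, in which the largest receptor share counts by size and not by gene, stayed within the spread of the libraries, their side of the test's threshold or 1.5 times the count. Of these 75, 17 left out replicate 1 and 17 left out replicate 2. For a mean over 2 libraries, either library alone always lies within that spread, so such comparisons say nothing about stability. Pnoc minus Pomc was not run, since Pomc had 0 reads. No paired analysis was possible because the series holds only 1 group. Depth limits Pnoc and Pomc.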
